A study of Homo sapiens with 2 samples.

Results

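ANP32A, ANP32B, ANP32E, NAP1L1, NAP1L4, SET, NPM1 and NCL encode histone chaperones and related nuclear proteins that carry runs of aspartate and glutamate, and they held 59 of the 20499 deposited NUDT21 eCLIP peaks. A peak was counted for a gene when its midpoint lay in the gene body (GENCODE 44, hg38), whichever strand the reads came from, since the list gives no strand. As members of a protein group, the 8 genes were selected on the number and height of their peaks, measured in this list, so those values are given as a description. Where within a gene the peaks lay, what they encode and which motifs they hold were not used in the choice, although earlier results of the same list were known.

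The study held 2 samples of J-Gamma1, a cell line of T-cell acute lymphoblastic leukemia (T-ALL) that was derived from Jurkat and is known to lack phospholipase C gamma 1: 1 library made with a NUDT21 antibody and 1 input library. The labels name no genetic change and no drug. Both went through UV-C irradiation on ice (2 exposures, 254 nm, 400 mJ each), 15 min of lysis and 5 min with 40 U of RNase I at 37 °C before the eCLIP-seq libraries were made, and the peak list of the antibody library is the data described here. With 1 antibody library there is no replicate, so no difference below has a test or a replicate error, and the 95% intervals are exact intervals that cover counting error only.

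NUDT21 is the subunit of cleavage factor I that binds UGUA in nascent RNA upstream of cleavage and polyadenylation sites, where it favours the use of distal sites. In eCLIP-seq, UV light joins a protein to the RNA it touches, and the antibody recovers the fragments for sequencing. Histone chaperones hold the basic histones with acidic surfaces while nucleosomes are built or taken apart. In the ANP32 and NAP1 families and SET an acidic run lies at or near the C terminus, whereas NPM1 carries it in the middle and NCL carries several in its N-terminal part.

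The whole list sets the scale. Peak height is given as the deposited Score in steps: the Score took only whole multiples of a single value, and 1 step may stand for 1 read, which is an inference from the values. The median of all 20499 peaks was 3 steps (1 to 45), and 0.0927% of them had a deposited FDR under 0.05. Peaks of 5 or more steps made up 42.3% of the list. At least 1 peak lay in 33.7% of the 19703 protein-coding genes, with a median of 2 peaks and a tallest peak of 3 steps among genes that had any. Of 13 T-cell marker genes 4 held a peak (CD3E, CD247, PTPRC, ZAP70), as did 0 of 3 B-cell and 0 of 3 myeloid markers. The T-cell count is near the 33.7% of all protein-coding genes, and the other 2 groups are small. A peak list also gives no expression level, so these counts do not tell the cell type.

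All 8 genes held at least 1 peak. The 59 peaks had a median height of 15 steps (1 to 36), a median length of 88 nt against 155 nt over the list, and a median fold enrichment of 2.76 against 1.61. Of the 59, 52 reached 5 steps (88.1%, interval 77.1 to 95.1%). Only 2 of the 59 had an FDR under 0.05, and 56 had an FDR of 1, so nearly all of the peaks described here rest on the deposited p-value.

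The ANP32 proteins are leucine-rich acidic nuclear phosphoproteins, and ANP32E is known as the chaperone that removes the variant histone H2A.Z. ANP32A (chr15:68778535-68820897, minus strand) held 6 peaks of 8 to 14 steps. ANP32B held 11 peaks of 1 to 31 steps and ANP32E held 10 of 6 to 15 steps. The heights of ANP32A and ANP32E therefore overlapped almost fully, while 7 of the 11 ANP32B peaks, each of 20 or more steps, stood above every peak of both.

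NAP1L1 and NAP1L4, nucleosome assembly proteins that carry H2A and H2B, formed the widest contrast. NAP1L1 held 17 peaks of 1 to 32 steps, whereas its paralogue NAP1L4 held 1 peak of 2 steps and 1.39-fold enrichment. SET, a nucleosome assembly protein relative that also inhibits protein phosphatase 2A, held 7 peaks of 13 to 36 steps. The nucleolar proteins NPM1 and NCL held 3 peaks of 16 to 19 steps and 4 peaks of 24 to 36 steps.

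By the tallest peak the order was SET and NCL (36 steps each), NAP1L1 (32), ANP32B (31), NPM1 (19), ANP32E (15), ANP32A (14) and NAP1L4 (2). If 1 step was 1 read, the Poisson intervals were 25.2 to 49.8 for SET and NCL, 21.9 to 45.2 for NAP1L1 and 21.1 to 44 for ANP32B. They were 8.40 to 24.7 for ANP32E, 7.65 to 23.5 for ANP32A and 0.242 to 7.22 for NAP1L4. These intervals do not allow for taking the tallest of 1 to 17 peaks per gene. Height was also used to choose the genes, so no difference between genes is read from them. Across all protein-coding genes, 5 had a taller peak than SET or NCL, 14 than NAP1L1, 15 than ANP32B, 72 than NPM1, 177 than ANP32E, 229 than ANP32A and 3824 than NAP1L4. The plot of peak heights shows these ranges gene by gene.

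**Figure D1:**
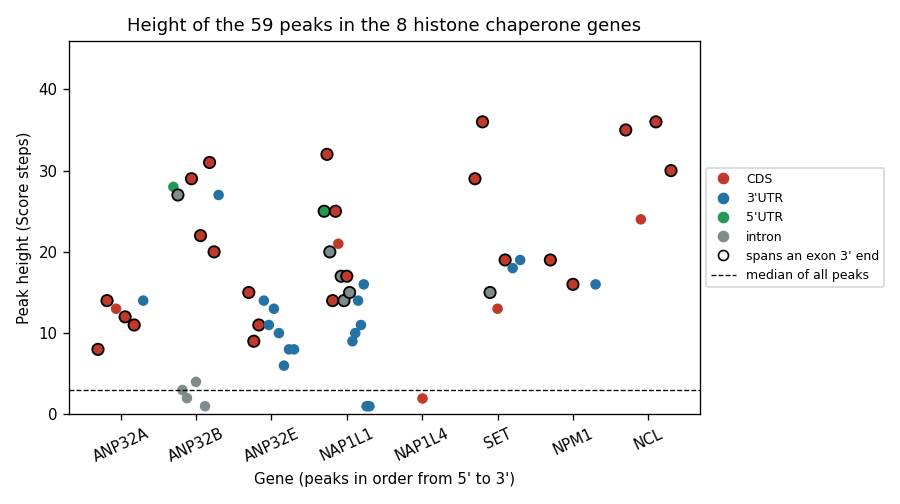
Height of each of the 59 peaks in Score steps (y axis) by gene (x axis, peaks ordered from 5' to 3' within a gene), coloured by the part of the canonical transcript that holds the midpoint. Black rings mark peaks that span the 3' end of an exon, and the dashed line is the median of all 20499 peaks (3 steps). Of the 59 peaks, 52 reached 5 steps; the peaks under that height were 4 intron peaks of ANP32B, 2 3'UTR peaks of NAP1L1 and the single peak of NAP1L4.

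Height and fold enrichment did not rank the peaks alike. The deposited fold enrichment equals the Score plus 1 over a local background plus 1, so the background can be solved for, in the same steps. Its median was 1.47 steps over the 59 peaks against 0.225 over the list. NCL stood highest, with a background of 8.78 to 15.2 steps beside peaks of 24 to 36 steps, which left folds of 1.96 to 2.99. Over the 21 peaks with a background of at least 4 steps the median height was 25 steps and the median fold 2.69, and over the other 38 peaks the median height was 11.5 steps and the median fold 2.90. The background moved with height, and its part in the heights was not tested.

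By the midpoint on the canonical transcript, 28 of the 59 peaks lay in coding sequence (47.5%, 34.3 to 60.9%), 19 in a 3'UTR (32.2%, 20.6 to 45.6%), 10 in an intron (16.9%) and 2 in a 5'UTR. Peaks of all other protein-coding genes lay in coding sequence in 30.9% of 20141 cases, in a 3'UTR in 17.6% and in an intron in 43.2%. The coding and intron contrast did not hold among peaks of 5 or more steps. Of these, 51.9% of the 52 in the 8 genes and 56.9% of 9081 in other genes were coding. In an intron lay 11.5% and 13.2%, and in a 3'UTR 32.7% and 22.8%. This floor does not match the heights: all coding peaks had a median of 19 steps in the 8 genes and 8 steps in other genes. Coding peaks were the largest class in ANP32A (5 of 6), SET (4 of 7) and NPM1 (2 of 3) and the only class in NCL (4 of 4) and NAP1L4 (1 of 1), while ANP32E and NAP1L1 each had 7 peaks in the 3'UTR. The class depends on the transcript: 13 of the 28 coding peaks (4 of ANP32A, 5 of NAP1L1, 3 of SET and 1 of NPM1) also lay in a UTR of another annotated transcript, and with UTRs taken first over all transcripts the coding share was 25.4%.

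**Figure D2:**
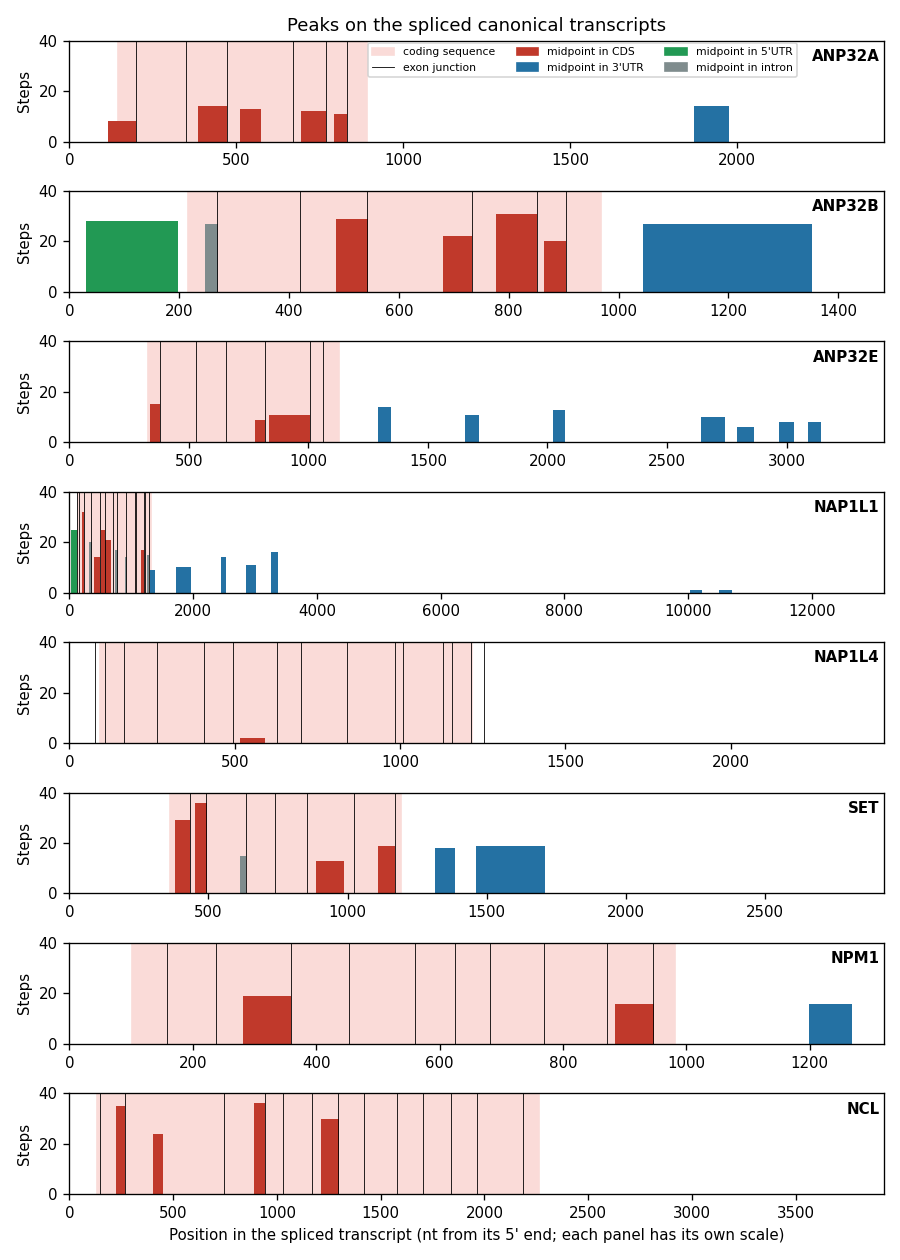
Peaks on the spliced canonical transcript of each gene, with position in nt from the 5' end (x axis, own scale per gene) and height in Score steps (y axis). Shading marks coding sequence, thin lines mark exon junctions, and colours give the part that holds the midpoint; only the exonic part of a peak is drawn, so 4 peaks wholly within introns of ANP32B are absent. The coding bars end at an exon junction in 23 of 28 cases, and NAP1L4 has a single bar of 2 steps.

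Most coding peaks of these genes ran over the 3' end of an exon into the following intron. Such a peak contains both the last base of an exon and the first base of the intron, the splice donor side. This held for 23 of the 28 coding peaks (82.1%, 63.1 to 93.9%), for 6 of the 10 intron peaks and for 1 of the 2 5'UTR peaks, 30 in all. No peak of the 59 spanned the 5' end of an exon (0 of 28 coding peaks, which allows a share of up to 12.3%). Among coding peaks of other genes, 32.3% spanned a 3' end and 7.08% a 5' end. At 5 or more steps, 2.05% of coding peaks in other genes spanned a 5' end, and 0 of 27 in the 8 genes (up to 12.8%). Both shares of other genes lie within the intervals of the 8 genes, so no difference at the 5' end is read.

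The contrast with other genes at the 3' end was smaller among peaks of 5 or more steps in short internal exons. Heights above that floor were not matched. In internal exons of at most 200 nt and with 5 or more steps, 20 of 23 member peaks spanned the 3' end (87.0%, 66.4 to 97.2%), against 55.5% of the same class in other genes. The 6 intron peaks of 14 to 27 steps all did so (allowing for counting error, 54.1 to 100%). In other genes 32.7% of intron peaks of 5 or more steps did so, a class with a lower floor. Of the 6 member peaks, that at NAP1L1 exon 14 lay in a 3'UTR of another annotated transcript. The other 4 intron peaks, all in ANP32B, had 1 to 4 steps and lengths of 114 to 426 nt. The question of exon ends was raised after seeing the data. No strand is given, and how the extension of reads along the genome by MACS2, which does not follow splicing, bears on these ends was not tested.

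Counted over exons, the canonical transcripts have 77 exon 3' ends, and 30 of them lay in a peak (39.0%), against 6.44% of those of other genes with a peak of 5 or more steps. This share grows with the number of peaks per gene, on which the 8 genes were selected, so it is a description and nothing is read from the contrast. ANP32B had 5 of its 6 ends in a peak, ANP32A 4 of 6, NAP1L1 9 of 14, SET 4 of 7 and ANP32E 3 of 6. NCL had 3 of 13, NPM1 2 of 10 and NAP1L4 0 of 15. The 3 ANP32 genes, NAP1L1 and SET thus had peaks at 50% or more of their exon ends.

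The intronic part was short and of narrow range. It had a median of 31.5 nt (6 to 40; quartiles 24.5 and 37), while the exonic part had a median of 53.5 nt (12 to 171). In other genes, the peaks of 5 or more steps across an exon 3' end reached a median of 21 nt into the intron (quartiles 12 and 32, n = 2152). ANP32B exons 3, 5 and 6 and SET exon 2 each had 39 nt of intron, and NAP1L1 exon 6 had the most, 40 nt.

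**Figure D3:**
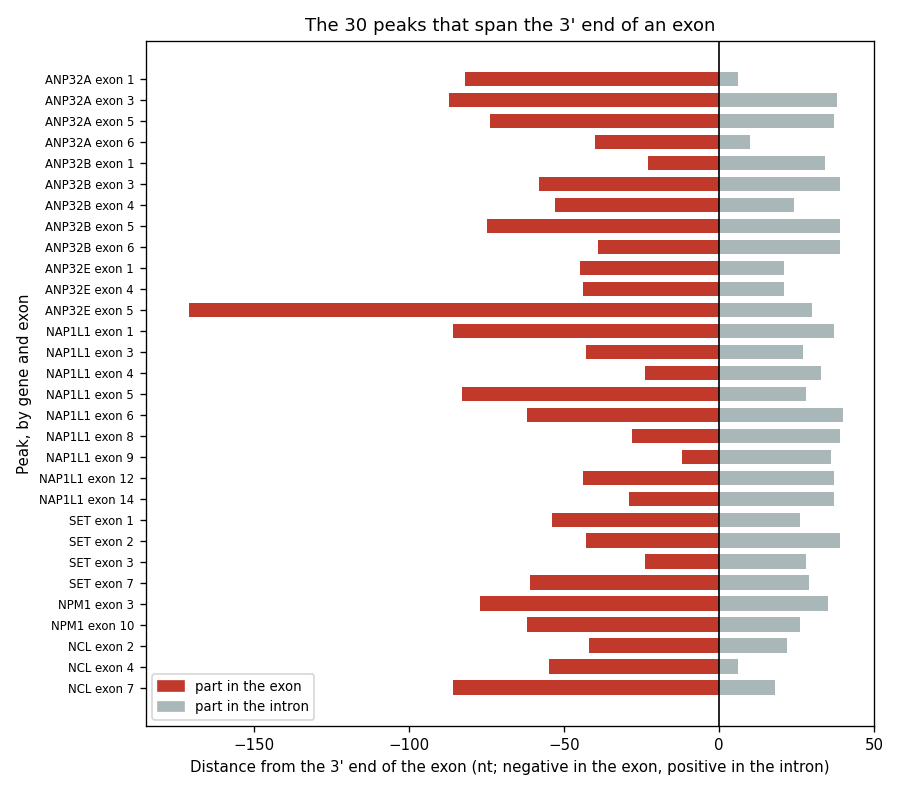
The 30 peaks that span an exon 3' end, 1 bar each, aligned at that end (x axis, nt; negative in the exon, positive in the intron; y axis, gene and exon). The intronic parts (grey) lie between 6 and 40 nt, whereas the exonic parts (red) range from 12 to 171 nt, the longest in ANP32E exon 5.

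The sequences show where these peaks stop. They are read from hg38 on the strand of the gene, 5′ to 3′, with the exon in capitals and the intron in lower case, for some of the tallest of these peaks that lay in no UTR of any transcript and for a peak centred in an intron. They were chosen after their values had been seen.
ANP32B exon 3, chr9:97998621-97998717, plus strand: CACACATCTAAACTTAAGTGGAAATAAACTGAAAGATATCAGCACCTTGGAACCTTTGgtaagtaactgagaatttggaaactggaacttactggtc
ANP32B exon 5, chr9:98011315-98011428, plus strand: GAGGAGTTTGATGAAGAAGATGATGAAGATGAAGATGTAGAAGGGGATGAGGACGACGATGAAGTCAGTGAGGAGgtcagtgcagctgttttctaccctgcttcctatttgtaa
SET exon 1, chr9:128689602-128689681, plus strand: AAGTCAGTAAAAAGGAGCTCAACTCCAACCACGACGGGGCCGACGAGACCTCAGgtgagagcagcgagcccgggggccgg
NCL exon 2, chr2:231463178-231463241, minus strand: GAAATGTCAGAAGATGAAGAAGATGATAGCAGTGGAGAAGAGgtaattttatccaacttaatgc
NAP1L1 exon 9, midpoint in the intron, chr12:76053734-76053781, minus strand: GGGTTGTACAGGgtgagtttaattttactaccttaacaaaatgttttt
At the 30 spanned ends the intron began with GT in 30 cases, as did 76 of the 77 introns of the 8 genes, so the letters do not set these peaks apart.

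The ANP32B exon 3 peak had the highest fold enrichment of the 59, 6.13, at 29 steps over a background of 1.05 steps, with an FDR of 0.0214. The other peak under 0.05 covered the 3' end of the first exon of NAP1L1, in the 5'UTR (chr12:76084530-76084652), with 25 steps, 5.85-fold enrichment and an FDR of 0.0296. Both spanned an exon 3' end. Neither touched an acidic run.

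Asp and Glu, the acidic residues, made up 38.2% of the 663 codons under peaks (253 codons) and 25.5% of the other 2152 codons of the 8 proteins, a ratio of 1.5. In the 3686 other genes with codons under a peak the shares were 13.2% and 12.8%, a ratio of 1.04. Codons of 1 peak are neighbours and are not independent, so these shares have no test. The genes differed among themselves. The share under peaks was higher than outside in ANP32B (53.7% against 29.6%), ANP32E (54.7% against 30.2%), NCL (41.6% against 22.7%), NAP1L1 (33.1% against 22.8%) and SET (36.2% against 29.5%). It was lower in NPM1 (12.8% against 23.9%), NAP1L4 (19.2% against 22.3%) and ANP32A (34.9% against 36.4%).

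An acidic run was defined here as residues whose centred window of 21 residues held at least 50% Asp and Glu, and such residues are called a tract. Tracts covered 543 of the 2815 residues of the 8 proteins (19.3%), and 218 of the 543 lay under a peak (40.1%). Of all codons of the 8 proteins 23.6% lay under a peak, and of the residues outside tracts 19.6%. In 527 other genes with a tract and coding codons under peaks, 15.2% of tract residues lay under a peak against 10.6% of all their codons. Of the 28 coding peaks 14 touched a tract (50%, 30.6 to 69.4%), while 6.92% of 1936 coding peaks did in the other genes, whose tracts made up only 1.40% of residues. These shares are therefore not on the same footing.

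ANP32B and ANP32E had the largest part of their tracts under peaks, 53 of 91 residues (58.2%) and 53 of 93 (57.0%). NAP1L1 had 27 of 54, ANP32A 38 of 84, SET 20 of 51 and NCL 27 of 105. NPM1 and NAP1L4 had 0 of 35 and 0 of 30: the coding peaks of NPM1 covered residues 61 to 86 and 262 to 282, on either side of its longest tract (161 to 186), and the NAP1L4 peak covered residues 141 to 166, upstream of its longest tract (344 to 372). In NAP1L1 the coding peaks touched mainly shorter acidic runs nearer the N terminus. Of its 4 coding peaks on a tract, those over residues 21 to 34, 123 to 143 and 147 to 177 lay outside the longest tract (349 to 374). The coding peak over residues 339 to 353 reached into the longest tract. So did the exon 14 peak, with its midpoint in the intron, over residues 371 to 380. Peaks covered 42.6% of all codons in ANP32A and 33.9% in SET, not far below their tract shares of 45.2% and 39.2%. In ANP32B, ANP32E, NAP1L1 and NCL they covered 32.7%, 32.1%, 37.1% and 10.8% of all codons, further below the tract shares. The pooled shares mix genes of such unlike coverage. Tract peaks had a median of 20.5 steps (9 to 36) and the other 14 coding peaks 15.5 steps (2 to 36), so the heights overlapped over most of their range. Of the 14 tract peaks 13 spanned an exon 3' end, and of the other 14 coding peaks 10 did. Tract and exon end thus lay together in most tract peaks, and their parts cannot be told apart.

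**Figure D4:**
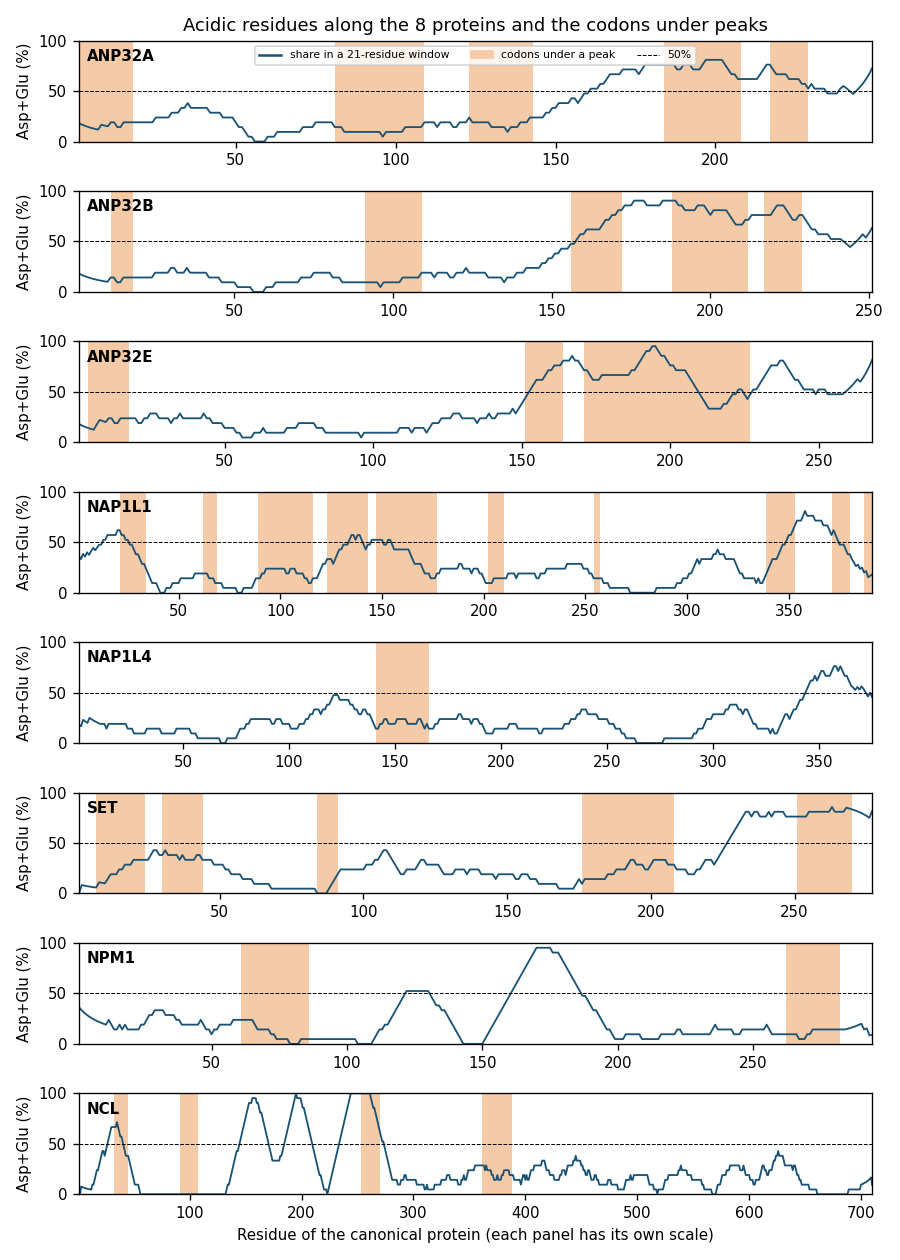
Share of Asp and Glu in a window of 21 residues (y axis, percent) along each of the 8 canonical proteins (x axis, residue number, own scale per protein); orange bands are the codons under a peak and the dashed line is the 50% that defines a tract. Bands lie over part of the acidic stretches in the ANP32 proteins, NAP1L1, SET and NCL, and over other residues as well. The tracts of NPM1 and NAP1L4 carry none.

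In 11 of the 28 coding peaks, Asp and Glu made up 50% or more of the codons. The codons are printed for the tallest ANP32B peak, for the ANP32E exon 4 peak, at the start of the acidic run, and for the peak of NCL that encodes none, on the gene strand of hg38 with Asp and Glu codons in capitals.
ANP32B exon 5, residues 188 to 212, chr9:98011315-98011389: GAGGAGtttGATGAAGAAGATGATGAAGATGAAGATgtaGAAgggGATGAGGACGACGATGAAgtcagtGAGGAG
ANP32E exon 4, residues 151 to 164, chr1:150229073-150229114: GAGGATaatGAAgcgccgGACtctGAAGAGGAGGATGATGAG
NCL exon 3, residues 91 to 107, chr2:231461832-231461882: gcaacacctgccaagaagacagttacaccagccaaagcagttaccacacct
ANP32B exon 5 encoded Asp or Glu in 20 of 25 codons and ANP32E exon 4 in 10 of 14. The NCL exon 3 peak encoded none in 17 codons, and at 24 steps it was the lowest of the 4 NCL peaks and the only 1 of them within an exon.

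Asp and Glu codons all begin with GA, so acidic coding sequence is rich in purines. Coding bases under peaks were A or G in 67.7% of 1986 nt against 61.3% outside, and in other genes 54.6% against 53.0%. Over all exonic sequence of the 8 genes the shares were 58.0% and 51.8%. In the pooled 8 genes purine and acidic content were both higher under peaks. In ANP32A they parted: coding purines were 66.8% against 64.0% and acidic codons 34.9% against 36.4%. NAP1L4 had nearly level purines (57.9% against 58.0%) and acidic codons of 19.2% against 22.3%. Each of the remaining members had both higher or both lower under peaks. The parts of the 2 in the pooled values cannot be told apart.

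The ANP32 paralogues could be compared residue by residue. ANP32A and ANP32B were identical at 72.7% of 245 aligned residues, ANP32A and ANP32E at 66.5% and ANP32B and ANP32E at 66.7%. Exons 1, 4 and 5 held a peak in all 3 genes, and exons 3 and 6 in ANP32A and ANP32B only. Of the aligned residues under peaks, ANP32A and ANP32B shared 59, which is 56.2% of those of ANP32A and 73.8% of those of ANP32B. ANP32E shared 44 with each of them, 61.1% and 62% of its own, which is 41.5% of those of ANP32A and 59.5% of those of ANP32B. Peaks covered 42.6% of all codons in ANP32A, 32.7% in ANP32B and 32.1% in ANP32E. Some overlap comes with such coverage, and no excess over it was computed.

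The shared stretches ended at the same exon ends. The exon 1 peaks ended at residue 18 in all 3 proteins, after starting at residue 1 in ANP32A, 11 in ANP32B and 4 in ANP32E. The exon 3 peaks ended at residue 109 in ANP32A and ANP32B, and their exon 6 peaks both covered residues 217 to 229. The exon 4 peaks did not align: ANP32A had residues 123 to 143 within the exon, whereas ANP32B (156 to 172) and ANP32E (151 to 164) had its 3' end. Between NAP1L1 and NAP1L4, identical at 67.1% of 368 residues, the 25 aligned residues of the NAP1L4 peak all lay under a NAP1L1 peak as well. This was the exon 7 peak of 21 steps against 2 steps in NAP1L4. These residues come from a single peak, and peaks covered 37.1% of all NAP1L1 codons.

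Reads that match related loci could be placed in more than 1 of them. The 8 genes have 81 annotated pseudogene copies, 49 of them of NPM1 and 20 of SET, and 1 of the 81 held a peak, a copy of NCL with 1 step. None of the 5 small RNA genes hosted inside ANP32A, NAP1L4 and NCL overlapped a peak. The ANP32A exon 1 peak also lay within SPESP1, a gene on the other strand, so its source gene is uncertain.

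NUDT21 is known for its UGUA motif, which was searched as TGTA on the gene strand. In the 3'UTR part of the 8 transcripts, UGUA occurred 25 times in the 2310 nt under peaks, 10.8 per kb (7.0 to 16), and at 6.96 per kb outside, a ratio of 1.56. The reverse complement UACA gave 5.63 and 5.04 per kb, a ratio of 1.12. The 3'UTRs of other genes gave 5.58 and 5.83 UGUA per kb, a ratio of 0.957. Of the 19 3'UTR peaks 12 held UGUA (63.2%), while 50% of all windows of the same lengths in the 8 3'UTRs and 40.9% in all 3'UTRs held it. In coding sequence there were 3 sites under peaks, 1.51 per kb (0.312 to 4.41) against 1.24 outside.

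Single genes decided the pooled ratio. In the 3'UTR, the ratio was 4.67 in ANP32B (7 sites in 307 nt), 4.08 in ANP32A (3 sites in 106 nt), 3.06 in ANP32E, 1.09 in SET and 0.748 in NAP1L1, and the NPM1 peak held none. The ANP32B ratio rests on 1 site in the 205 nt outside its peak, while ANP32A had 10 sites in 1440 nt outside. Without NAP1L1, whose 3'UTR makes up most of the sequence outside peaks, it was 2.49, and without ANP32B it was 1.29. Over all exonic sequence the ratio was 1.14 (6.11 against 5.35 per kb), and it was 0.955 without ANP32B and 1.74 without NAP1L1, so its direction rested on 1 gene.

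The 3'UTR peaks were spread along the UTRs. The ANP32A peak (14 steps) was centred 1030 nt after the stop codon and the ANP32B peak (27 steps) 227 nt after it. The 7 of ANP32E had 6 to 14 steps and lay 184 to 1984 nt after the stop codon. NAP1L1 had 5 peaks of 9 to 16 steps from 26 to 2006 nt after the stop codon, and 2 of 1 step at 8812 and 9288 nt in its 3'UTR of 11844 nt. SET had 2 peaks of 18 and 19 steps, and the NPM1 peak of 16 steps lay at an annotated transcript end and 87 nt from the end of the canonical transcript. The midpoint was within 150 nt of the nearest end of any annotated transcript in 9 of the 19, with a median distance of 152 nt (0 to 3032). NAP1L1 alone has 26 annotated transcripts, and no such share was taken for other genes, so no closeness to ends is read from this count. To the end of the canonical transcript the distance was 87 nt (NPM1) to 11818 nt (NAP1L1). NCL and NAP1L4 had no 3'UTR peak, although their 3'UTRs have 1660 and 1242 nt.

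Sites under the 3'UTR peaks are shown in 30 bases each, on the gene strand of hg38 with the motif in capitals, to show what surrounds it.
ANP32A exon 7, chr15:68779074-68779103: aattcctagtgaaTGTAcaggtttgctttc
ANP32A exon 7, chr15:68778999-68779028: cccatgtttcatcTGTAtaaaagaacatct
ANP32E exon 7, chr1:150218685-150218714: gggttttatatttTGTAgaagttttcggtc
NAP1L1 exon 15, chr12:76047244-76047273: cttctgtttactgTGTAattaaaatgggta
SET exon 8, chr9:128694998-128695027: tgctaggcccctgTGTAgtagtgcatagaa
SET exon 8, chr9:128695105-128695134: gcatttaccaacaTGTAtctgtctactttc
The ANP32A peak held 3 sites, the ANP32B peak 7 and the longer of the SET peaks 3. At least 1 site lay in 4 of the 7 ANP32E peaks and in 5 of the 7 NAP1L1 peaks, and the shorter SET peak and the NPM1 peak held none.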

How the data were processed

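The authors trimmed the reads of the antibody library with fastp, corrected and deduplicated them by molecular identifier, removed rRNA reads, mapped the rest to hg38 and called peaks with MACS2. The aligner and the control of the peak calling are not given in the sources used here. The deposited list holds for each peak a fold enrichment (a ratio of pileup to local background), a p-value, an FDR (q-value) and a Score. The unit of this deposited signal is not stated, and its values are whole multiples of 0.228, the step. Read depth is unknown. The input library was used here only through its labels, and whether it was the control behind the deposited folds is unknown.

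Peaks were assigned by midpoint to gene bodies of GENCODE 44, and regions, codons and exon ends came from the canonical transcript. All 8 genes were named, as were the 5 other histone chaperones with the tallest peaks and the 5 non-member genes with the tallest tract peaks. Printed peak sequences were chosen among peaks outside every UTR, 3'UTR sites were printed in 30 bases, and the peaks that span an exon end were added after their values were seen. The genes and lists were chosen with earlier results of these data known. Alternatives covered the peaks kept, the assignment, the region order, the part of the peak, the tract definition and each gene left out. Shares have Clopper-Pearson 95% intervals and step heights Poisson intervals. Proteins were aligned with BLOSUM62 (Biopython 1.88). Counting was tested on simulated peaks and used scipy 1.17.1, pandas 2.3.3, numpy 2.4.6 and matplotlib 3.10.9 in Python 3.11.15.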

Additional observations from a re-analysis of the deposited data

How the results depend on the processing

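Of the 59 peaks, 2 remained with an FDR under 0.05, so every value below at that setting describes 2 peaks. The ratio of acidic shares under peaks to outside was 1.5 and became 0.368, the number of coding peaks touching a tract went from 14 to 0, the UGUA ratio from 1.14 to 0, the purine ratio from 1.12 to 0.790, and the share of coding peaks across an exon 3' end from 82.1% to 100%, that of a single peak. With UTRs first over all transcripts the coding share was 25.4% in place of 47.5%, since 13 coding peaks lay in a UTR of another transcript. With peaks extended by 50 nt the UGUA ratio was 0.997; the cause was not tested. Leaving out each gene in turn gave 1.42 to 1.57 for the acidic ratio, 10 to 14 tract peaks, 0.955 (without ANP32B) to 1.74 (without NAP1L1) for the UGUA ratio, 1.102 to 1.14 for the purine ratio and 79.2 to 85.2% for exon 3' ends. Under the other alternatives run for these results, direction and size held.

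The exon 3' end result, its alternatives and the counts of UGUA in the 3'UTR and the coding sequence apart were chosen after seeing the data. A single library without replicates leaves the reproducibility of each peak unmeasured. No paired analysis was possible because there is 1 antibody library and no result comes from a test.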

Other observations

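Outside the 8 genes, 29 other histone chaperones and relatives were looked up. Of these 20 held a peak, 15 a coding peak and 14 a peak of 5 or more steps, 112 peaks in all. At least 1 peak lay in 33.7% of all protein-coding genes. The all-gene shares for a coding peak and for a peak of 5 or more steps are not given here. The list gives no expression level, so nothing about these chaperones as a group is read from the counts. The tallest were in PTMA (36 steps), which encodes the acidic protein prothymosin alpha, then CHAF1A, the large subunit of chromatin assembly factor 1 (19 steps), SUPT16H, a subunit of the FACT complex (19 steps), NASP, a carrier of H3 and H4 (17 steps), and NOLC1, a nucleolar phosphoprotein (13 steps). The 9 with no peak were ASF1B, DAXX, MCM2, NAP1L2, NPM3, PTMS, SSRP1, TSPYL1 and TSPYL2. SSRP1, the partner of SUPT16H in FACT, thus had none while SUPT16H had 11 peaks. Of the 65 coding peaks in these genes 25 spanned an exon 3' end (38.5%), near the 32.3% over all genes outside the 8.

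By the height of a coding peak on an acidic tract, the leading non-member genes were the chaperones of unfolded proteins HSP90AA1 (44 steps), HSP90AB1 (40 steps) and HSP90B1 (36 steps), then PTMA (36 steps) and LUC7L3, a splicing factor (27 steps). The LUC7L3 peak had an FDR of 0.00159 and 6.52-fold enrichment, and the peaks of HSP90AB1, HSP90B1, PTMA and LUC7L3 spanned an exon 3' end, whereas the HSP90AA1 peak did not.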
